A study of Arabis alpina with 12 samples.

Results

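Cell division genes were described in lateral buds of Arabis alpina, a perennial relative of Arabidopsis thaliana. The deposited comparison tables list 3884 of the 19722 measured genes as changed, with annotation text for each. In that text, 95 genes matched a word for kinesin, cyclin, minichromosome, DNA replication, mitotic, cytokinesis, aurora, DNA polymerase or a core histone. The linker histone HIS1-3 was dropped by rule, which left 94. Of these, 71 encode proteins of DNA replication, mitosis, cytokinesis, the cyclin and kinase machinery, kinesins or core histones. The other 23 matched incidentally, for example F-box proteins with a cyclin-like domain, and are described apart from the 71. The sorting into 71 and 23 was made by gene role after values had been seen.

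RNA was sequenced from buds of ecotype Pajares in 4 groups of 3 libraries, which the series describes as biological replicates. Buds came from V2, the zone whose buds stay dormant, and from V3, the zone whose buds grow. Plants had spent 8 weeks in long days (nights of 8 h at 18 °C, days of 16 h at 20 °C) and then 12 weeks at 4 °C, a vernalization with the same day length. One group per zone was taken at the end of the cold (0 d), and the other group 5 d later in long days. All 4 groups therefore share ecotype and cold treatment, and no group was kept without cold. The labels do not say whether buds of several plants were pooled.

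A plant cell that divides first licenses its replication origins, copies its DNA and packs it with new core histones, and then separates the copies on a spindle and builds a new wall across a phragmoplast. Cyclins of the A and B classes with their kinases drive the later steps, E2F factors switch on genes of the earlier ones, and inhibitors such as SIAMESE hold the kinases back. Many of these genes are transcribed only in cycling cells, so that in buds their level is widely read as a sign of growth. In bulk buds, fewer dividing cells and less RNA per cell cannot be told apart.

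Values are normalized counts per library, given for replicates 1, 2 and 3 in that order, and differences are log2 of the normalized count + 1, with the standard error after ±. A difference between zones is V3 minus V2, and a difference over time is 5 d minus 0 d. A gene was called when limma gave an adjusted p under 0.05 across all genes tested. Zeros that the gene's FPKM or the other libraries of its group contradicted were left out, which removed 71 values in 15 of the 94 genes (8 of the 71). The table gave back 12252622 whole reads for V2 0 d replicate 3 and between 18377958 and 22586938 for each remaining library. V2 0 d replicate 3 also held 6553 contradicted zeros over all genes, against 886 to 1224 in each of the others. The p-values measure the spread between these libraries. For a contrast in which the authors listed the gene, its difference is given without a p, because that listing is how the gene was chosen. The difference between the zones' changes over time is likewise given without a p, since each of the 94 genes was listed for at least 1 of the contrasts it is built from. Where a p is given, its contrast can still share a group of libraries with the listing. The changes over time of genes listed for the zones at 5 d do so. Such a p is not independent of how the gene was chosen.

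Over the 63 of the 71 genes with a usable value in every library, the mean relative level (log2, centred per gene) put the 12 libraries in an order by group. It was -1.12, -1.09 and -0.56 in V2 at 5 d. It was -0.24, -0.03 and -0.17 in V2 at 0 d. It was 0.86, 0.27 and 0.42 in V3 at 0 d and 0.55, 0.52 and 0.59 in V3 at 5 d. The libraries of V2 at 5 d lay lowest, those of V2 at 0 d next, and both V3 groups lay above all V2 libraries and overlapped each other. V3 0 d replicate 1 stood apart at the top, with the highest value of all 12 libraries in 49 of the 63 genes. V2 5 d replicate 3 lay closest to the V2 libraries of 0 d and was the lowest library for 3 genes, against 27 and 29 for replicates 1 and 2.

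**Figure D1:**
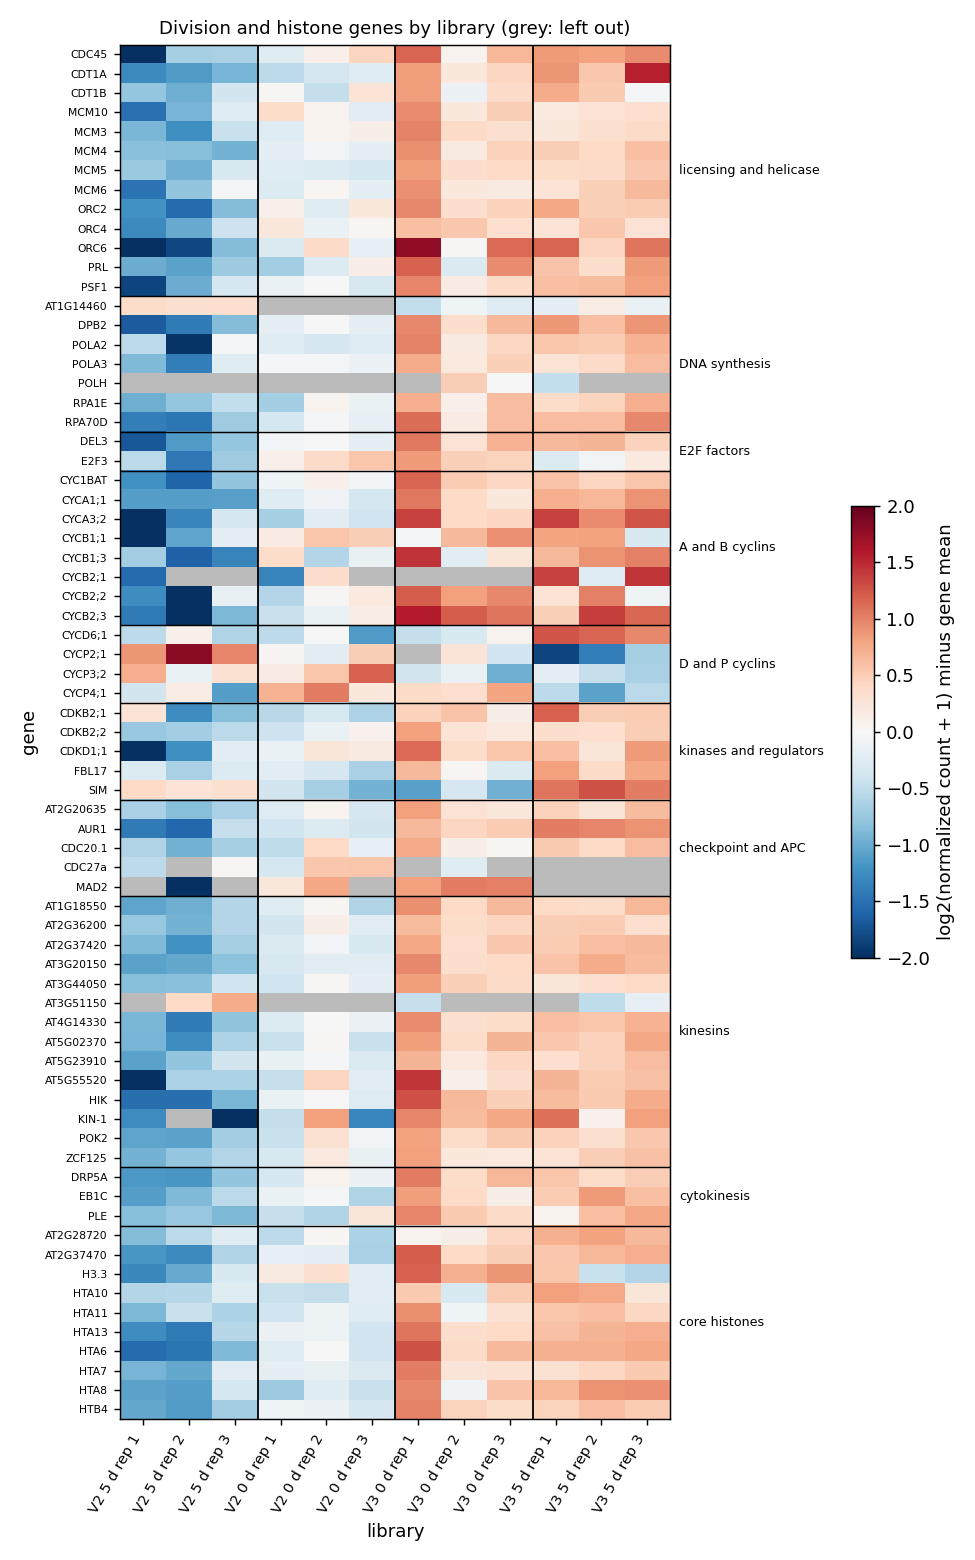
Relative level of each of the 71 division and histone genes (rows, by role) in the 12 libraries (columns, ordered V2 5 d, V2 0 d, V3 0 d, V3 5 d), as log2(normalized count + 1) minus the gene's mean. Blue is below and red above the mean, grey values were left out. Most rows run from blue in V2 at 5 d to red in V3, and V3 0 d replicate 1 is the darkest red column.

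The group means followed one order in most genes. V2 at 5 d was lowest, V2 at 0 d next and both V3 groups above in 56 of the 63 genes. The highest mean was V3 at 0 d in 31 genes, V3 at 5 d in 30 and a V2 group in 2. The 7 exceptions were E2F3, CYCD6;1, CYCP3;2, CYCP4;1, FBL17, SIM and H3.3. By the deposited FPKM, which gave a value for all 71 genes, 59 of 71 followed the order. The place of V2 below V3 at 5 d was largely fixed by the choice of genes. Of 9998 genes without a missing value 17.2% followed the order, but so did 239 of 283 other genes (84.5%) listed for the zones at 5 d alone and higher in V3 there, against 47 of 48 division genes (97.9%) chosen in that way. The difference between these shares was not tested.

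**Figure D2:**
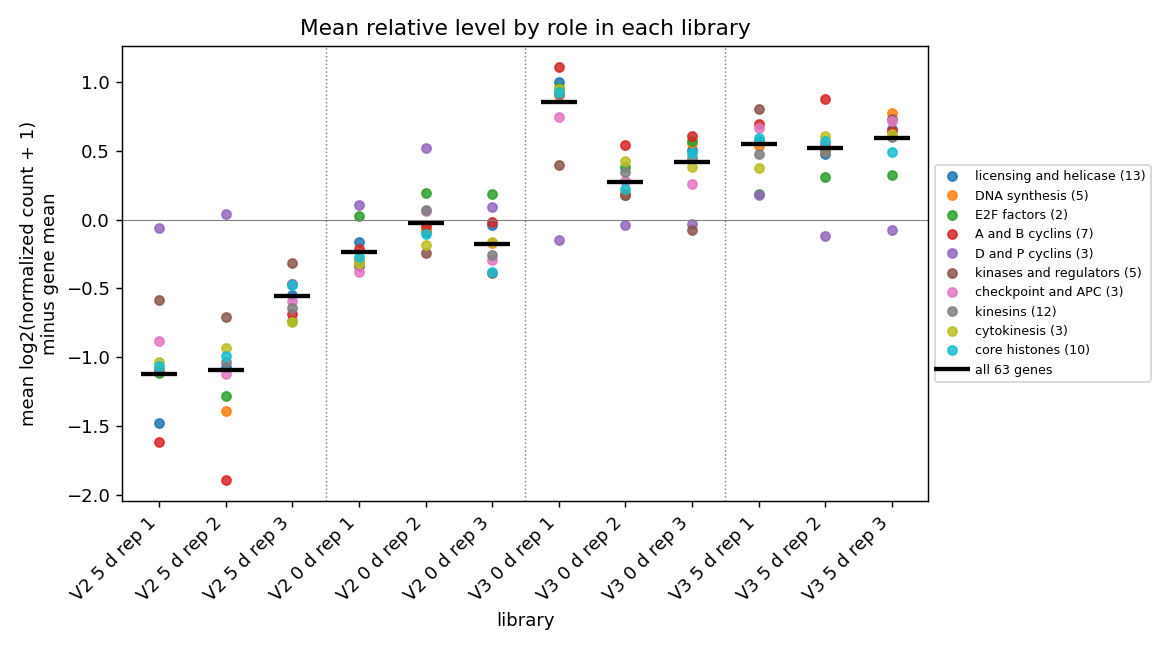
Mean log2(normalized count + 1) minus the gene mean for each role (coloured points, number of genes in brackets) and for all 63 genes (black bars) in each library. All 63 genes averaged -1.12 to -0.56 in V2 at 5 d and 0.27 to 0.86 in V3, while the D and P cyclins stayed between -0.47 and 0.52.

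At 5 d the zones differed in nearly all of these genes. Of 67 tested, 61 were higher in V3 and 3 lower, against 16.2% of all genes higher and 19.9% lower, with a median difference of 1.41 (all genes -0.04). Among genes the authors listed anywhere, 26.2% were higher and 32.7% lower. The zones did not overlap in 64 of the genes, with V3 above in 60 and below in 4, against 25.9% and 30.6% of all genes and 34% and 41% of listed genes. By FPKM, 64 of 71 were higher and 1 lower, against 32.1% and 35.1% of listed genes. The authors listed 62 of the 71 for this contrast, 50 of them for it alone, so these counts describe how the genes were chosen and nothing is read from them. The 3 lower genes were AT1G14460, AT3G51150 and CYCP2;1, and the 3 not called were CYCP3;2, CYCP4;1 and H3.3. The authors list only changes over 1 on the log2 scale. In the authors' deposited table the smallest of these listed at 5 d were AT3G44050 at 1.01 and CDKB2;2 at 1.05, and genes under the limit carry no annotation text here, so none just outside could be matched.

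The end of the cold gives a view of the zone difference in libraries that the 5 d listing did not use, although the fit takes its estimate of the spread from all 12 libraries. The authors listed 7 of the 71 genes for the zones at 0 d itself, 6 of them higher in V3. HTA6 and AT2G37470, both called below, are among them. Genes listed over time in V2 were also chosen with the V2 libraries of 0 d. The 49 genes listed at 5 d alone and higher in V3 there were not listed from libraries of 0 d. Genes that the authors also listed at 0 d or over time were left out of this set. The values of 0 d therefore still bear on which genes it holds. With the 0 d groups fitted alone, 2 genes were called. In the fit of all libraries, of 66 genes tested, 14 were higher in V3 and 0 lower, against 1.13% of all genes higher and 3.25% lower, and 62 of 66 differences were positive with a median of 0.70. Among listed genes 3% were higher and 10.1% lower. The V3 libraries all lay above the V2 libraries in 48 genes and all below in 1, against 13.3% and 19% of all genes and 14.3% and 33.2% of listed genes. At an unadjusted p under 0.05, 41 were higher and 1 lower (CYCP3;2). Among the 49 genes listed at 5 d alone and higher in V3 there, all 49 were also higher on average at 0 d (0.10 to 1.42, median 0.70). Of these 49, 11 were called (22.4%), and in 38 (77.6%) each V3 library lay above each V2 library. Of the 291 other genes chosen in the same way, 91.1% were positive, 11% were called higher, the median was 0.49 and 51.9% did not overlap. Over all genes tested, 45.9% were positive and 13.3% did not overlap with V3 above.

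The number called at 0 d rested on single libraries. It was 0 without V2 0 d replicate 1, 1 without V2 0 d replicate 3, 3 without V3 0 d replicate 1, 24 without V3 0 d replicate 2 and 5 without V3 0 d replicate 3. Libraries of 5 d, which enter through the spread alone, also moved it, to 3 without V3 5 d replicate 2, 4 without V3 5 d replicate 1, 7 without V3 5 d replicate 3, 6 without V2 5 d replicate 1 and 8 without V2 5 d replicate 2. The median stayed between 0.51 and 0.85. Each of the 14 calls ended when at least 1 library was left out. FPKM, tested over the listed genes alone, gave 50 higher and 1 lower of 71, against 10.8% and 23% of all listed genes, with the same sign as the counts in 66 of 66 genes.

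**Figure D3:**
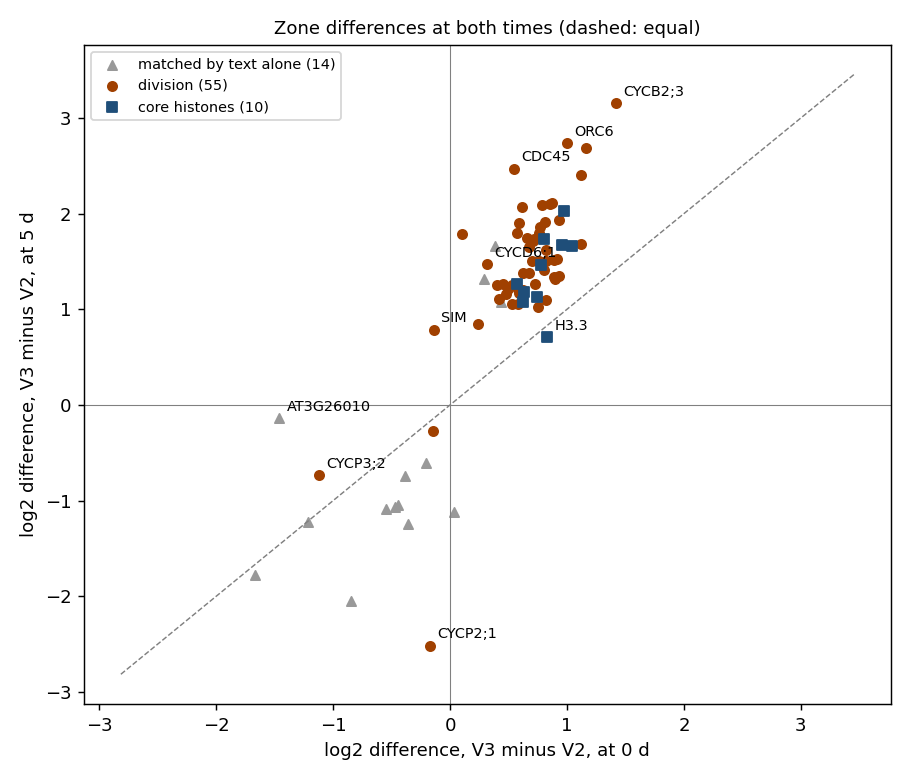
Difference between V3 and V2 (log2) at 0 d (x axis) and at 5 d (y axis) for the tested division genes, core histones and text-only matches. Most division and histone genes lie in the upper right, above the dashed line of equal difference, with a median of 0.70 at 0 d and 1.41 at 5 d, and CYCP2;1 lies at -0.17 and -2.51.

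Over the 5 d after the cold the division genes that changed in V2 nearly all fell, and few changed in V3. In V2, 30 of 66 fell and 1 rose (SIM), against 11.3% of all genes lower and 12.6% higher, with a median of -0.74 (all genes 0.00). Among listed genes 29.3% were higher and 17.2% lower. The times did not overlap in V2 in 44 genes with 5 d below and in 2 with 5 d above, against 24.1% and 25.1% of all genes and 23.7% and 42.8% of listed genes. By FPKM, 3 of 71 were higher at 5 d in V2 and 51 lower, against 33.3% and 20.9% of listed genes. In V3, 2 of 66 rose (SIM and CYCD6;1) and 1 fell (CYCP4;1), against 13.4% of all genes higher and 10.9% lower, with a median of -0.01 (all genes -0.02). Among listed genes 34.2% were higher and 15% lower. The times did not overlap in V3 in 4 genes each way, against 20.8% of all genes above and 21.2% below, and 40.6% and 20.5% of listed genes. By FPKM, 3 of 71 were higher at 5 d in V3 and 5 lower, against 37.5% and 18% of listed genes. At an unadjusted p under 0.05, 3 rose and 4 fell in V3. The V2 fall shares its 5 d libraries with the contrast that listed the genes. Among the 49 listed at 5 d alone, 21 fell in V2 (42.9%) and 0 rose, against 37.5% and 0.687% of the other genes chosen in the same way. In V3, 0 of the 49 were called, against 20.5% of those other genes called higher. Genes that the authors also listed over time were left out of both sets, so these counts are partly set by that choice. The V2 count was 18 without V2 0 d replicate 2, 18 without V2 5 d replicate 1 and 19 without V2 5 d replicate 2. Of the 31 calls in V2, 13 ended when some single library was left out and 18 did not.

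**Figure D4:**
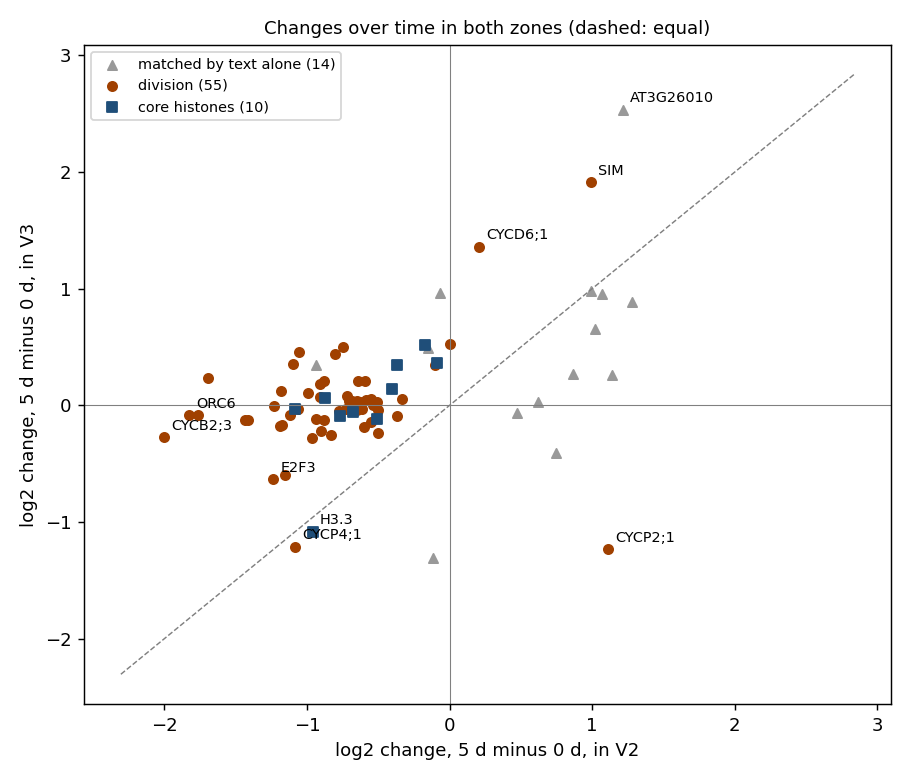
Change from 0 d to 5 d (log2) in V2 (x axis) and in V3 (y axis) for the tested division genes, core histones and text-only matches. Most division and histone genes lie left of 0 and near 0 on the y axis (medians -0.74 and -0.01), with SIM and CYCD6;1 at the top and CYCP2;1 at the lower right.

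The change in V3 minus the change in V2 equals the zone difference at 5 d minus that at 0 d, so it uses the values that listed most of these genes, and what follows is a description. It was positive in 62 of 65 genes (median 0.71, all genes 0.00). Among genes listed for the zones at 5 d alone and higher in V3 there, it was positive in 49 of 49 division genes (median 0.69) and in 291 of 291 other genes (median 0.79). Of the 65, 31 were higher and 1 lower at an unadjusted p under 0.05. After adjustment 4 were called higher (DPB2, CYCA1;1, AUR1 and AT3G20150) and 1 lower (CYCP2;1), all 5 of them listed for the zones at 5 d, against 4.01% and 3.01% of all genes and 10.9% and 7.59% of listed genes. By FPKM, 18 of 71 were called higher and 1 lower, against 20.7% and 10.5% of listed genes. Among the 49 genes listed at 5 d alone, 3 were called higher (6.12%), against 21.6% of the other genes chosen in the same way. The count was 22 without V3 0 d replicate 1, 11 without V2 5 d replicate 3, and 0 without V3 0 d replicate 3, V2 5 d replicate 1, V2 5 d replicate 2 or V3 5 d replicate 1. Each of the 5 calls ended when at least 1 library was left out.

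Origin licensing and helicase genes came first in the cycle and held 13 members, the subunits that mark origins (ORC), load the helicase (CDT1) and form it (MCM, CDC45, GINS). At 5 d all 13 were higher in V3, at 0 d 2 were (MCM4 and MCM5), and over time 7 fell in V2 while none was called in V3. Beside this and the later counts by role, 16.2% of all genes were higher in V3 at 5 d and 1.13% at 0 d. Over time 11.3% of all genes fell in V2, and 13.4% rose and 10.9% fell in V3. The counts at 5 d describe how the genes were chosen. MCM5, a subunit of the ring helicase, had 2798, 2727 and 2583 in V2 at 0 d, 5889, 4220.1 and 4353 in V3 at 0 d, 1986, 1708 and 2692 in V2 at 5 d and 4269, 4324 and 4817 in V3 at 5 d. The V3 libraries lay above the V2 libraries at both times, with differences of 0.82 ± 0.17 at 0 d (adjusted p = 0.0286) and 1.09 ± 0.17 at 5 d. MCM4, of the same ring, had 2926, 3207 and 2901 in V2 at 0 d, 6390, 3786 and 4597 in V3 at 0 d, 1874, 1840.1 and 1736 in V2 at 5 d and 4690, 4390 and 5088 in V3 at 5 d. Its change in V2 was -0.73 ± 0.16 (adjusted p = 0.00989), with all 3 libraries of 5 d below those of 0 d. MCM4 was listed for the zones at 5 d, so that p shares the V2 libraries of 5 d with its listing. Its difference at 0 d was 0.68 ± 0.16 (adjusted p = 0.0431).

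CDT1A, which loads the helicase on origins, had 572, 655 and 696 in V2 at 0 d, 1466, 956 and 1106 in V3 at 0 d, 341, 374 and 431 in V2 at 5 d and 1520.1, 1199.9 and 2412 in V3 at 5 d. V3 5 d replicate 3 was the highest library, and the zones did not overlap at either time. ORC2, an origin recognition subunit, had 163, 128 and 177 in V2 at 0 d, 297, 195 and 209 in V3 at 0 d, 64.9, 51.5 and 82.6 in V2 at 5 d and 260.2, 212 and 217 in V3 at 5 d. Its levels in V2 at 5 d lay below every other library, a change of -1.23 ± 0.24. ORC6, another subunit of that complex, had 128, 203 and 139 in V2 at 0 d, 533, 158 and 343 in V3 at 0 d, 20.5, 43.6 and 85.3 in V2 at 5 d and 352, 209 and 329.5 in V3 at 5 d. In counts the zones overlapped at 0 d, where V3 0 d replicate 2 lay within the V2 range, and the zone difference at 5 d was the largest of the role at 2.74 ± 0.55. Its counts per FPKM ranged from 4.54 to 17.5 among libraries. In FPKM the zones did not overlap at 0 d, at 9.52, 13.0 and 10.2 in V2 and 30.4, 15.6 and 19.7 in V3. The FPKM difference at 5 d was 1.68, below that of CDT1A at 1.73.

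CDC45, which activates the helicase, had 159, 203 and 254 in V2 at 0 d, 426, 199 and 300.4 in V3 at 0 d, 15.9, 119 and 120.3 in V2 at 5 d and 342, 332 and 366 in V3 at 5 d. The lowest library, V2 5 d replicate 1, held few counts for its FPKM of 2.08, at 7.66 counts per FPKM against a median of 42.3 for this gene. PRL, the MCM subunit known as PROLIFERA, had 859, 1154 and 1536 in V2 at 0 d, 3162, 1139.8 and 2694 in V3 at 0 d, 705, 667 and 846 in V2 at 5 d and 2081, 1777 and 2531 in V3 at 5 d. The zones did not overlap at 5 d but did at 0 d. The other 6 members (CDT1B, MCM10, MCM3, MCM6, ORC4 and PSF1) differed between zones by 1.11 to 1.74 at 5 d and by 0.42 to 0.66 at 0 d.

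**Figure D5:**
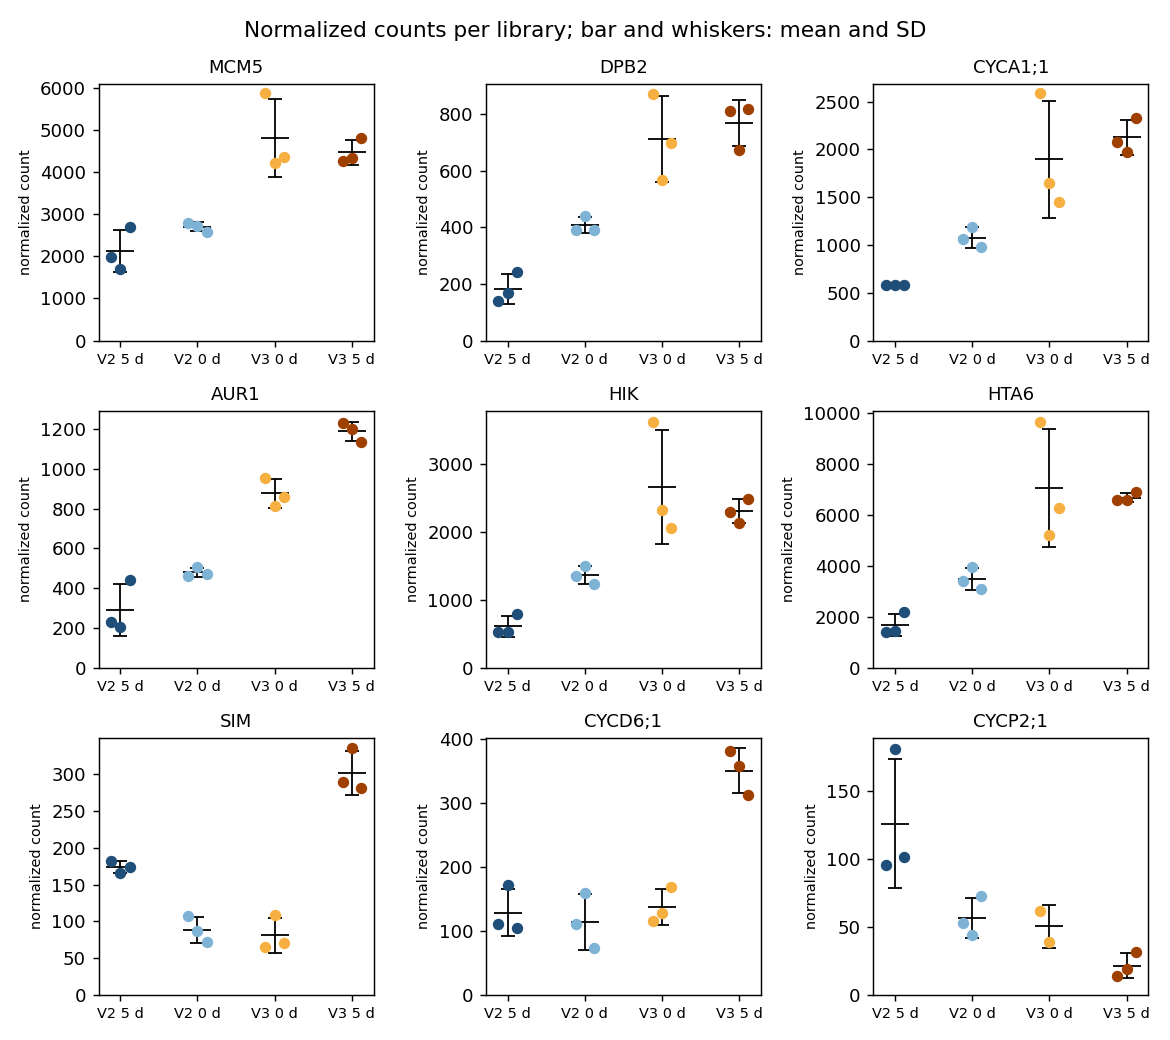
Normalized counts of 9 genes in each library (points), with the mean and SD of each group (bar and whiskers). MCM5, DPB2, CYCA1;1, AUR1, HIK and HTA6 have their lowest group mean in V2 at 5 d and their highest in V3, while SIM, CYCD6;1 and CYCP2;1 depart from that order. CYCP2;1 has 2 usable libraries in V3 at 0 d.

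DNA synthesis genes held 7 members, of which 6 were tested at 5 d, 5 of them higher in V3 and 1 lower. At 0 d 0 of 5 were called at differences of 0.53 to 0.82 (3 at an unadjusted p under 0.05, and 3 of 7 by FPKM), and over time in V2 3 of 5 fell. DPB2, the second subunit of DNA polymerase epsilon, had 392, 439.7 and 389.7 in V2 at 0 d, 870.2, 567 and 697 in V3 at 0 d, 140, 168 and 242 in V2 at 5 d and 811, 673 and 818 in V3 at 5 d. The libraries of V2 at 5 d lay below all others, and the change in V2 was -1.18 ± 0.21. Its change over time differed between zones by 1.31 ± 0.30.

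RPA70D, a large subunit of the single-strand binding protein RPA, had 721, 896 and 820.2 in V2 at 0 d, 1988, 1027 and 1416 in V3 at 0 d, 352, 339 and 565 in V2 at 5 d and 1414, 1415 and 1788 in V3 at 5 d. It fell in V2 by 0.99 ± 0.25 on the log2 scale (adjusted p = 0.0206, up to 0.0741 with 1 library left out). The zones did not overlap at either time. RPA1E, a related subunit, had 147, 249 and 216 in V2 at 0 d, 392, 253 and 362 in V3 at 0 d, 119.5, 138 and 167 in V2 at 5 d and 304, 322 and 392 in V3 at 5 d. Its V3 libraries lay above its V2 libraries at both times. POLA2, of the primase complex, had 829, 776 and 822 in V2 at 0 d, 1946, 1113 and 1309.6 in V3 at 0 d, 684, 253 and 968 in V2 at 5 d and 1433, 1389.8 and 1582 in V3 at 5 d. V2 5 d replicate 2 was its lowest library, and V2 5 d replicate 3 lay above the V2 libraries of 0 d. POLA3, of the same complex, differed by 0.53 ± 0.25 at 0 d and by 1.25 ± 0.25 at 5 d.

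AT1G14460, annotated as a DNA polymerase III-like ATPase, ran the other way. It had no usable value in V2 at 0 d, 593, 792 and 698 in V3 at 0 d, 1087, 1046 and 1059.7 in V2 at 5 d and 729.9, 924 and 764 in V3 at 5 d. V2 lay above V3 at 5 d, a difference of -0.41 ± 0.13 (adjusted p = 0.0412, up to 0.121 with 1 library left out). The authors' deposited table lists it at log2 changes of 11.9 at 0 d and 12.5 over time in V2, both of which rest on the zeros of V2 at 0 d, where its FPKM was 13.2, 13.4 and 14.8. POLH, a translesion polymerase, had counts in 3 libraries alone and was not tested. The authors' deposited table gives it 29.8 at 0 d, while its FPKM was 4.38, 6.52 and 5.49 in V2 at 0 d, 9.3, 7.26 and 6.19 in V3 at 0 d, 2.91, 3.1 and 3.79 in V2 at 5 d and 4.83, 4.63 and 4.01 in V3 at 5 d.

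The 2 E2F family members fell in V2. DEL3, an atypical E2F that acts as a repressor in A. thaliana, had 253, 263 and 231 in V2 at 0 d, 549, 322 and 427 in V3 at 0 d, 80.8, 119.8 and 154 in V2 at 5 d and 414, 421 and 362 in V3 at 5 d. Its change in V2 was -1.12 ± 0.25 and the V3 groups overlapped. E2F3, a transcriptional activator of the family, had 457, 553 and 622 in V2 at 0 d, 764, 591 and 576 in V3 at 0 d, 292, 156 and 259.5 in V2 at 5 d and 349, 408 and 485 in V3 at 5 d. Its change in V2 was -1.24 ± 0.24, and its level in V3 at 5 d also lay below V3 at 0 d in all libraries, at -0.64 ± 0.24 (adjusted p = 0.0876). E2F3 was not listed for the 5 d zone contrast, though its V2 listing shares the V2 libraries of 5 d. In that contrast it was called at 0.84 ± 0.24 (adjusted p = 0.0228, up to 0.0801 with 1 library left out).

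The A and B cyclins, which carry cells through DNA replication and mitosis, held 8 members. The 7 that were tested were all higher in V3 at 5 d (1.68 to 3.15) and positive at 0 d (0.10 to 1.42, 1 called), and 2 fell in V2. CYCA1;1, a mitotic A cyclin, had 1057, 1191 and 980 in V2 at 0 d, 2587, 1648 and 1447 in V3 at 0 d, 584, 579 and 586 in V2 at 5 d and 2078, 1973 and 2332 in V3 at 5 d. The 3 libraries of V2 at 5 d nearly coincided at 583 ± 3.2 (SD, n = 3), below all others. It differed between zones at 0 d by 0.77 ± 0.18 (adjusted p = 0.0452), and its change over time differed between zones by 1.09 ± 0.26. CYC1BAT, a B cyclin, had 1823, 2084 and 1877 in V2 at 0 d, 4366, 2751 and 2602 in V3 at 0 d, 837, 643 and 1121 in V2 at 5 d and 2876, 2616 and 2849 in V3 at 5 d. It fell in V2 by 1.19 ± 0.22 on the log2 scale, with no overlap.

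CYCA3;2, an A cyclin of the S phase class, had 141, 189.8 and 169 in V2 at 0 d, 577, 295 and 301 in V3 at 0 d, 30.7, 89.1 and 177 in V2 at 5 d and 579.8, 431 and 536 in V3 at 5 d. V2 5 d replicate 3 stood within the V2 range of 0 d. CYCB2;3, a B cyclin, had 191, 238 and 287 in V2 at 0 d, 772, 602 and 545 in V3 at 0 d, 96.7, 13.9 and 139 in V2 at 5 d and 363, 677 and 579 in V3 at 5 d. Its lowest count, in V2 5 d replicate 2, was 8.83 counts per FPKM against a median of 115, and its FPKM read 3.14, 2.31 and 2.42 in V2 at 0 d, 5.77, 4.02 and 3.39 in V3 at 0 d, 2.17, 1.57 and 1.24 in V2 at 5 d and 4.09, 4.04 and 3.65 in V3 at 5 d. In FPKM too each V3 library lay above each V2 library. CYCB1;1, the B cyclin often used as a reporter of mitosis, had 1033, 1353 and 1298 in V2 at 0 d, 898, 1442 and 1731 in V3 at 0 d, 129, 444 and 806 in V2 at 5 d and 1579, 1612 and 746 in V3 at 5 d. The zones overlapped at both times in counts, through V3 5 d replicate 3 and V3 0 d replicate 1. Its count per FPKM ranged from 6.97 to 29.7 among libraries, with a median of 24.9, and its FPKM read 38.6, 51 and 47.8 in V2 at 0 d, 109.8, 57.5 and 70.5 in V3 at 0 d, 18.5, 17.9 and 27.1 in V2 at 5 d and 64.7, 61.5 and 74.2 in V3 at 5 d. In FPKM each V3 library lay above each V2 library.

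CYCB2;1 had 6 usable counts and was not tested. Its FPKM read 3.72, 5.71 and 5 in V2 at 0 d, 13.7, 5.7 and 5.61 in V3 at 0 d, 2.95, 1.63 and 3.02 in V2 at 5 d and 8.15, 5.32 and 8 in V3 at 5 d. The V2 libraries of 5 d lay below the V3 libraries of 5 d in FPKM. The authors' deposited table lists it at 9.04 over time in V3, which rests on contradicted zeros in V3 at 0 d.

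The D and P cyclins, which link the cycle to external signals and, for the P class, to nutrition in A. thaliana, held 4 members and did not follow the common order. CYCD6;1, a D cyclin of formative divisions in the A. thaliana root, had 110.5, 159.6 and 72.5 in V2 at 0 d, 115, 129 and 168 in V3 at 0 d, 110.4, 171 and 104 in V2 at 5 d and 382, 358 and 313 in V3 at 5 d. The 3 libraries of V3 at 5 d lay above all others, a rise in V3 of 1.36 ± 0.30. Its change in V2 was 0.21 ± 0.30, and the difference between the zones' changes was 1.16 ± 0.42.

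CYCP2;1 had 53, 44.2 and 72.5 in V2 at 0 d, 61.5 and 39.1 in 2 usable libraries of V3 at 0 d, 95.6, 180.2 and 101 in V2 at 5 d and 13.6, 19 and 31.8 in V3 at 5 d. The zones overlapped at 0 d, and at 5 d V2 lay above and V3 below every other library. Its change over time was 1.11 ± 0.38 in V2 (adjusted p = 0.0665) and -1.23 ± 0.42 in V3 (adjusted p = 0.0678). The difference between them was -2.34 ± 0.59, a call that ended when any of 7 libraries was left out.

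CYCP3;2 had 184, 242 and 375 in V2 at 0 d, 128, 151 and 83.7 in V3 at 0 d, 273, 151 and 204 in V2 at 5 d and 144, 120.3 and 105 in V3 at 5 d. V2 lay above V3 at both times with no overlap, but neither difference was called (-1.12 ± 0.33, and -0.73 ± 0.33 with adjusted p = 0.114). CYCP4;1 had 149, 187 and 106 in V2 at 0 d, 119.9, 115 and 159 in V3 at 0 d, 70.6, 102 and 42.2 in V2 at 5 d and 63.3, 43.3 and 62.7 in V3 at 5 d. The libraries of 5 d lay below those of 0 d in both zones, with changes of -1.08 ± 0.34 in V2 and -1.21 ± 0.34 in V3 (the V2 call ended when any of 9 libraries was left out and the V3 call when any of 5 was), and the zones overlapped at both times.

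The kinases and their regulators held 5 members, all higher in V3 at 5 d. At 0 d 0 of 5 were called (3 at an unadjusted p under 0.05, and 3 by FPKM), and over time 1 of 5, SIM, was called in each zone. CDKB2;1, a plant kinase specific to mitosis, had 967, 1136 and 924 in V2 at 0 d, 1966, 2112 and 1545 in V3 at 0 d, 1723, 602 and 785 in V2 at 5 d and 3235, 2014 and 2023 in V3 at 5 d. V2 5 d replicate 1 lay above the V2 libraries of 0 d, and there the count per FPKM was the highest of the gene at 62.2 against a median of 23.8. CDKB2;2, its close relative, had 556, 679.7 and 787 in V2 at 0 d, 1320.2, 899 and 848 in V3 at 0 d, 439, 459.5 and 515 in V2 at 5 d and 945, 937 and 1048 in V3 at 5 d. The zones did not overlap at either time, and V2 at 5 d lay lowest. CDKD1;1, a kinase that activates other cyclin-dependent kinases, differed by 1.90 ± 0.50 at 5 d and 0.59 ± 0.49 at 0 d. FBL17, an F-box protein that targets kinase inhibitors for destruction, had 567, 520 and 417 in V2 at 0 d, 1030.2, 671 and 539 in V3 at 0 d, 544, 419.9 and 544 in V2 at 5 d and 1159, 857 and 1126 in V3 at 5 d. It did not change in a called way over time in either zone (0.01 in V2 and 0.53 in V3).

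SIM, the kinase inhibitor SIAMESE that promotes endoreplication in A. thaliana, was the one division gene that rose in both zones. It had 107, 86.3 and 71.4 in V2 at 0 d, 64.6, 108 and 70.7 in V3 at 0 d, 182, 166 and 173 in V2 at 5 d and 289, 336 and 281 in V3 at 5 d. The libraries of 5 d lay above those of 0 d in both zones, and V3 at 5 d lay above V2 at 5 d. The rise was 0.99 ± 0.23 in V2 (adjusted p = 0.0125) and 1.91 ± 0.22 in V3, and the difference between these rises was not called (0.92 ± 0.32). At 0 d the zones overlapped.

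The mitotic checkpoint and anaphase genes held 5 members, of which 3 could be tested at 5 d and were higher in V3. AUR1, an Aurora kinase of the spindle, had 462, 505 and 470.1 in V2 at 0 d, 955, 815 and 860.3 in V3 at 0 d, 228, 204 and 440.1 in V2 at 5 d and 1233, 1199 and 1136 in V3 at 5 d. The 4 groups did not overlap, in the order V2 at 5 d, V2 at 0 d, V3 at 0 d and V3 at 5 d. It fell in V2 by 0.81 ± 0.24 on the log2 scale (adjusted p = 0.0341, up to 0.114 with 1 library left out). It changed by 0.44 ± 0.24 in V3 (adjusted p = 0.214), and these changes differed by 1.25 ± 0.33. CDC20.1, an activator of the anaphase-promoting complex, had 2273, 4228 and 2866 in V2 at 0 d, 5422, 3516 and 3322 in V3 at 0 d, 2122, 1664 and 2040.4 in V2 at 5 d and 4637, 4258 and 4935 in V3 at 5 d. V2 0 d replicate 2 lay within the V3 range in counts. In FPKM the zones did not overlap at 0 d, at 79.7, 96.4 and 77.4 in V2 and 148, 102 and 113 in V3. AT2G20635, annotated as a kinase of the mitotic checkpoint, had 389, 485 and 366 in V2 at 0 d, 819, 566 and 540.4 in V3 at 0 d, 297, 257 and 296 in V2 at 5 d and 636, 552 and 717 in V3 at 5 d. The V3 libraries lay above the V2 libraries at both times.

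MAD2, a spindle checkpoint protein, had usable counts in 6 libraries, among them 866, 999 and 988 in V3 at 0 d. Its FPKM read 48.4, 52.8 and 42.4 in V2 at 0 d, 112, 68.5 and 70.9 in V3 at 0 d, 21.6, 17.3 and 28.4 in V2 at 5 d and 60.5, 55 and 62.8 in V3 at 5 d. In FPKM the order was that of most genes, with V2 at 5 d lowest and V3 above V2 at both times without overlap. The authors' deposited table lists MAD2 at -12.4 over time in V3, which rests on zeros in the 3 libraries of V3 at 5 d. CDC27a, a subunit of the anaphase-promoting complex, had an FPKM of 6.09, 7.28 and 7.91 in V2 at 0 d, 6.54, 7.59 and 6.83 in V3 at 0 d, 4.19, 3.75 and 4.78 in V2 at 5 d and 2.98, 3.75 and 3.4 in V3 at 5 d. Both groups of 5 d lay below both groups of 0 d. Its listing at -23.2 for the zones at 5 d and -22.2 over time in V3 in the authors' deposited table rests on zeros as well.

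Kinesins, the motors that move along microtubules, were the largest role with 14 members. At 5 d 13 were higher in V3 and 1 lower, at 0 d 7 of 13 were higher, and over time 10 of 13 fell in V2 and 0 of 13 were called in V3 (0 at an unadjusted p under 0.05, and 0 of 14 by FPKM). Of all genes 16.2% were higher in V3 at 5 d and 1.13% at 0 d, and 11.3% fell in V2. The 7 kinesins higher at 0 d were AT1G18550, AT2G36200, AT2G37420, AT3G20150, AT3G44050, AT5G02370 and HIK, and they were 7 of the 14 genes called at 0 d. HIK, or HINKEL, a phragmoplast kinesin needed for cytokinesis, had 1355, 1497 and 1236 in V2 at 0 d, 3628, 2321 and 2061 in V3 at 0 d, 522, 523 and 791 in V2 at 5 d and 2293, 2138 and 2485 in V3 at 5 d. The zones did not overlap at either time (at 0 d 0.93 ± 0.22, adjusted p = 0.0447), and the change in V2 was -1.18 ± 0.22.

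AT3G20150 had 1432, 1543 and 1537 in V2 at 0 d, 3479, 2280.5 and 2347 in V3 at 0 d, 847, 879 and 1014 in V2 at 5 d and 2639.8, 2986 and 2780.2 in V3 at 5 d. Its groups did not overlap except V3 at 0 d with V3 at 5 d. It had the smallest adjusted p of the role at 0 d (0.82 ± 0.15, adjusted p = 0.0164), and its changes over time differed between zones by 0.80 ± 0.21. AT2G37420, of the class of spindle kinesins, had 1226, 1436 and 1214 in V2 at 0 d, 2558, 1880.1 and 2174 in V3 at 0 d, 810.4, 646 and 940.3 in V2 at 5 d and 2114, 2257 and 2354 in V3 at 5 d. Here too V2 at 5 d lay below V2 at 0 d and both V3 groups above, with a difference at 0 d of 0.76 ± 0.15 (adjusted p = 0.023). AT3G44050 had 1953, 2599 and 2232 in V2 at 0 d, 4577, 3567 and 3339.9 in V3 at 0 d, 1426, 1445 and 1941 in V2 at 5 d and 3051, 3239.7 and 3379 in V3 at 5 d. Its change in V2, at -0.50 ± 0.16 (adjusted p = 0.0445), ended when any of 8 libraries was left out.

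AT1G18550 had 446, 542 and 350.1 in V2 at 0 d, 1014, 699 and 832 in V3 at 0 d, 254, 269 and 352 in V2 at 5 d and 702, 679.6 and 841 in V3 at 5 d. V2 5 d replicate 3 overlapped the V2 libraries of 0 d, and the zones differed at 0 d by 0.93 ± 0.20 (adjusted p = 0.0339). AT5G02370 had 752, 1037 and 753 in V2 at 0 d, 1828, 1316 and 1633 in V3 at 0 d, 534, 429.8 and 665 in V2 at 5 d and 1476, 1407 and 1752 in V3 at 5 d. The zones differed at 0 d by 0.91 ± 0.19 (adjusted p = 0.0316) with no overlap. POK2, which guides the phragmoplast to its cortical site, had 2284, 3824 and 2999 in V2 at 0 d, 5415, 3983 and 4461 in V3 at 0 d, 1492, 1469.7 and 1909 in V2 at 5 d and 4274, 3868 and 4482 in V3 at 5 d. It fell in V2 by 0.88 ± 0.19 on the log2 scale (adjusted p = 0.00936). KIN-1 had 83.1, 205 and 46.4 in V2 at 0 d, 229.6, 181 and 199 in V3 at 0 d, 47.8 and 24.2 in 2 usable libraries of V2 at 5 d and 250.4, 123 and 204 in V3 at 5 d. V2 0 d replicate 2 lay among the V3 libraries.

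AT3G51150 was the kinesin that was lower in V3 at 5 d. It had no usable count in V2 at 0 d, 477 in 1 library of V3 at 0 d, 872 and 1099 in 2 libraries of V2 at 5 d, and 462 and 591 in 2 libraries of V3 at 5 d. The difference at 5 d was -0.90 ± 0.21 (adjusted p = 0.0488, up to 0.0592 with 1 library left out). Its FPKM read 3.22, 3.66 and 3.5 in V2 at 0 d, 3.41, 4.15 and 3.47 in V3 at 0 d, 4.81, 4.93 and 5.92 in V2 at 5 d and 4.55, 4.55 and 4.4 in V3 at 5 d. In FPKM V2 at 5 d was again above V3 at 5 d without overlap, and the listing at 23.6 for the zones at 0 d in the authors' deposited table rests on zeros. The remaining 5 kinesins (AT2G36200, AT4G14330, AT5G23910, AT5G55520 and ZCF125) were higher in V3 at 5 d by 1.21 to 1.74.

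The 3 cytokinesis genes were higher in V3 at 5 d, 1 of them also at 0 d. DRP5A, a dynamin-related protein of the cell plate, had 527, 703 and 613 in V2 at 0 d, 1378, 857 and 1052 in V3 at 0 d, 302, 296 and 385 in V2 at 5 d and 976, 864 and 938 in V3 at 5 d. It differed between zones at 0 d by 0.82 ± 0.18 (adjusted p = 0.0373) and fell in V2 by 0.90 ± 0.18 on the log2 scale (adjusted p = 0.00711), each without overlap. PLE, or PLEIADE, a microtubule bundling protein of the phragmoplast, had 589.8, 537 and 966 in V2 at 0 d, 1601, 1170.5 and 1060.3 in V3 at 0 d, 454, 484 and 439 in V2 at 5 d and 861, 1235 and 1399 in V3 at 5 d. V2 0 d replicate 3 lay close to the V3 range. EB1C, a protein of growing microtubule ends, had 645, 702 and 468 in V2 at 0 d, 1264, 936 and 767 in V3 at 0 d, 329, 384 and 487 in V2 at 5 d and 1008, 1289.5 and 1078 in V3 at 5 d. V2 5 d replicate 3 overlapped V2 at 0 d.

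Core histones, which package newly made DNA, had the highest FPKM of the roles. Their median FPKM was 275 in V2 at 0 d, 553 in V3 at 0 d, 153 in V2 at 5 d and 539 in V3 at 5 d, against 8.53 to 20.9 for the kinesins. At 5 d 9 of 10 were higher in V3, at 0 d 3 of 10 (AT2G37470, HTA6 and HTB4), and over time 3 of 10 fell in V2 and 0 of 10 were called in V3. AT2G37470 and HTA6 were listed by the authors for the zones at 0 d. Histone genes form families of near-identical copies, so that the split of reads between members is uncertain. HTB4, an H2B gene with the highest FPKM of all 71 genes, had 9514, 9322 and 8012 in V2 at 0 d, 20034, 13791 and 13001 in V3 at 0 d, 4966, 4645 and 6206 in V2 at 5 d and 13657, 15313 and 14304 in V3 at 5 d. V2 at 5 d lay lowest and V3 highest with no overlap between zones, a difference of 0.78 ± 0.17 at 0 d (adjusted p = 0.035).

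HTA6, an H2A gene of the W class found in heterochromatin, had 3400.1, 3978 and 3094 in V2 at 0 d, 9683, 5239 and 6266 in V3 at 0 d, 1387, 1453 and 2184 in V2 at 5 d and 6583, 6596 and 6901 in V3 at 5 d. It differed between zones by 0.97 ± 0.23 at 0 d and fell in V2 by 1.08 ± 0.23 on the log2 scale. AT2G37470, an H2B gene, had 3700.5, 3631 and 2661 in V2 at 0 d, 9682, 5476 and 5890.2 in V3 at 0 d, 1851, 1724 and 2754 in V2 at 5 d and 6067, 6618 and 6929 in V3 at 5 d. It had the largest histone difference at 0 d, 1.04 ± 0.24, and V3 0 d replicate 1 was its highest library. HTA13, an H2A gene, had 2363, 2388 and 1981 in V2 at 0 d, 5423, 3272 and 3383 in V3 at 0 d, 1082, 968 and 1739 in V2 at 5 d and 3876, 4109 and 4270.4 in V3 at 5 d. It fell in V2 by 0.87 ± 0.24 on the log2 scale (adjusted p = 0.0252, up to 0.0867 with 1 library left out). V2 5 d replicate 3 was again nearest to 0 d.

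AT2G28720, an H2B gene, had 4154, 6176 and 3868 in V2 at 0 d, 6259.8, 6508 and 7979 in V3 at 0 d, 3282, 4184 and 5036 in V2 at 5 d and 9759, 10417 and 9368 in V3 at 5 d. Its V3 libraries of 5 d lay above those of 0 d, at 0.52 ± 0.20 (adjusted p = 0.0907), and its V2 groups overlapped. HTA8 and HTA11, H2A genes of the Z class, were higher in V3 at 5 d by 1.67 and 1.18. Neither was called over time in either zone. HTA7 and HTA10 were higher in V3 at 5 d by 1.13 and 1.08. The replacement histone H3.3, which is deposited outside replication, had 109.6, 120.5 and 82.7 in V2 at 0 d, 220.4, 158 and 178 in V3 at 0 d, 38.7, 47.5 and 78.1 in V2 at 5 d and 142, 70.7 and 63.7 in V3 at 5 d. In counts it was the one histone not called at 5 d (0.71 ± 0.35, adjusted p = 0.149), and its change over time was -0.96 ± 0.35 in V2 (adjusted p = 0.0745) and -1.08 ± 0.35 in V3, neither of them called. By FPKM all 10 histones were called higher in V3 at 5 d without overlap, and H3.3 was called lower over time in V3 at -0.61. Its counts per FPKM ranged from 1.73 to 4.37 among libraries.

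Of the 23 genes matched by text alone, 3 of 17 tested at 5 d were higher in V3 and 9 lower, against 16.2% and 19.9% of all genes and 26.2% and 32.7% of listed genes. Over time in V2 8 of 17 rose and 1 fell, against 12.6% and 11.3% of all genes and 29.3% and 17.2% of listed genes. Like the division genes they were chosen from the listed genes, so these counts are a description. ADK1 and ADK2, adenosine kinases, rose in V3. ADK2 had 3104, 3044 and 3187 in V2 at 0 d, 4633, 3063 and 3859.9 in V3 at 0 d, 2801, 3002 and 3119.9 in V2 at 5 d and 7665, 7664 and 6929.8 in V3 at 5 d. The 3 libraries of V3 at 5 d lay above all others, the rise in V3 was 0.96 ± 0.13 (adjusted p = 0.000679), and it differed from the change in V2 by 1.03 ± 0.18. ADK2 was listed for the zones at 5 d, so that p shares the V3 libraries of 5 d with its listing. AT1G10780, an F-box gene, had 348, 374 and 333 in V2 at 0 d, 510.5, 382 and 496 in V3 at 0 d, 172, 141 and 254 in V2 at 5 d and 600.2, 574 and 578 in V3 at 5 d. V2 at 5 d lay below all other libraries, and the zones' changes differed by 1.28 ± 0.29.

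AT3G26010, annotated with a kelch repeat and an F-box, had 173, 96.4 and 125 in V2 at 0 d, 33.8, 73.9 and 38.1 in V3 at 0 d, 288, 358 and 256 in V2 at 5 d and 299, 244 and 269.6 in V3 at 5 d. It rose in both zones, by 1.22 ± 0.31 in V2 and 2.53 ± 0.31 in V3, and the zones differed at 0 d by -1.46 ± 0.31. AT3G59210, an F-box gene, had 374, 289 and 256 in V2 at 0 d, 84.1, 203 and 127 in V3 at 0 d, 525, 724 and 575 in V2 at 5 d and 257, 246 and 267 in V3 at 5 d. V3 lay below V2 at both times. AT4G21240, another F-box gene, had 213, 189 and 208 in V2 at 0 d, 94.3, 127 and 118 in V3 at 0 d, 178, 236 and 157 in V2 at 5 d and 36.1, 41.2 and 59.9 in V3 at 5 d. It fell in V3 by 1.31 ± 0.23 on the log2 scale.

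AT1G23390, an F-box gene with kelch repeats, had 938, 941 and 1014 in V2 at 0 d, 669, 866 and 731 in V3 at 0 d, 2571, 2337 and 1600.4 in V2 at 5 d and 867, 999 and 838 in V3 at 5 d. V2 at 5 d lay above all other libraries, a rise of 1.14 ± 0.17. AT5G26960, of the same annotation, had 553, 478 and 698 in V2 at 0 d, 572, 588 and 594 in V3 at 0 d, 1205, 766 and 944 in V2 at 5 d and 451, 418 and 450.2 in V3 at 5 d. It rose in V2 by 0.75 ± 0.17 (adjusted p = 0.0131), and its changes over time differed between zones by -1.16 ± 0.24. AFR, an F-box protein of far-red light signalling, had 71.2, 49.2 and 46.4 in V2 at 0 d, 42, 46.1 and 53.9 in V3 at 0 d, 102, 165 and 141 in V2 at 5 d and 83.8, 88.6 and 90.8 in V3 at 5 d. It rose in both zones, by 1.28 ± 0.24 in V2 and 0.88 ± 0.23 in V3 (adjusted p = 0.0201, up to 0.058 with 1 library left out). AT1G30930 had 138, 89.4 and 106 in V2 at 0 d, 70.7, 107 and 78.1 in V3 at 0 d, 258, 216 and 198 in V2 at 5 d and 159, 119 and 124 in V3 at 5 d, and AT3G07870 had 312, 166 and 113 in V2 at 0 d, 42, 117 and 35.3 in V3 at 0 d, 307, 443 and 401 in V2 at 5 d and 143, 96 and 95.5 in V3 at 5 d. The first rose in V2 by 1.02 ± 0.23, and the second did not change in a called way over time.

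Further genes of the same pathways, outside the text rule, were taken from lists by A. thaliana locus. They too could enter only where the authors listed them, so their counts describe that choice. PCNA1, FAS2, BUBR1, KNOLLE and UBC20 were listed for the zones at 5 d, FEN1 for V2 over time and SMR1 for V3 over time. Of 28 replication loci 10 were paired with a listed gene, and of the 3 that were not already members all 3 (PCNA1, FAS2 and FEN1) were higher in V3 at 5 d, against 16.2% of all genes, 0 were called at 0 d, and 1 fell in each zone. PCNA1, the sliding clamp of the polymerase, had 3084, 3148 and 3132 in V2 at 0 d, 7399.7, 3651 and 4768 in V3 at 0 d, 1868, 1707 and 2718 in V2 at 5 d and 4524, 4776 and 4874 in V3 at 5 d. The V3 libraries lay above the V2 libraries at both times. FEN1, a nuclease that trims Okazaki fragments, had 1753, 1885 and 1783 in V2 at 0 d, 2677, 2460 and 2323 in V3 at 0 d, 717, 838 and 1143 in V2 at 5 d and 1332, 1590.3 and 1599 in V3 at 5 d. It fell in V3 as well as in V2, with log2 changes of -0.72 (adjusted p = 0.00761) and -1.03.

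Of 26 mitosis loci 8 were paired, and of 3 that were not members all 3 (BUBR1, KNOLLE and UBC20) were higher in V3 at 5 d, and fell in V2, a contrast that shares the V2 libraries of 5 d with the listing (all genes 16.2% and 11.3%). KNOLLE, the syntaxin of the cell plate, had 2020.5, 2293 and 1857 in V2 at 0 d, 3976, 2709.7 and 2775 in V3 at 0 d, 1159, 1134 and 1554 in V2 at 5 d and 3574, 3139.5 and 3751 in V3 at 5 d. Its groups followed the common order, with a log2 change of -0.69 in V2 (adjusted p = 0.0175) and 0.16 in V3. Of 9 kinase inhibitor loci 2 were paired, SIM and SMR1, and SMR1 rose in V3.

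Markers of other tissues could be paired only where the authors listed the gene as changed. Unchanged markers could not enter, so that the paired ones moved follows from this choice. For the meristem list 1 of 6 loci was paired, CUC3, a boundary gene, whose FPKM ran from 9.77 to 13.4 at 0 d, 5.53 to 7.03 in V2 at 5 d and 3.48 to 5.70 in V3 at 5 d. It fell in both zones, with log2 changes of -0.98 in V2 and -1.60 in V3. For the vascular list 3 of 8 loci were paired (XCP1, XCP2 and APL), with a summed FPKM of 1.74 to 4.43 in V2 at 0 d, 0.638 to 1.87 in V3 at 0 d, 5.60 to 11.9 in V2 at 5 d and 21.8 to 23.0 in V3 at 5 d. The normalized count of XCP1 was 0 in every library of 0 d. For the senescing-leaf list 1 of 3 loci was paired, NAP, with an FPKM of 5.11 to 10.5 in V2 and 0 to 1.21 in V3. No locus of 7 photosynthetic markers was paired, and loci without a pair were not analysed here. The part of these tissues in the differences of the division genes was not tested.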

How the data were processed

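Per the labels' protocols, polyA RNA of lateral buds was sequenced from directional libraries as 150 bp single reads on a HiSeq3000. HISAT2, StringTie, DESeq2 and TopHat are named in the submitters' processing notes. What each did, its version and the build: not given in the sources used here. The authors deposited a table of normalized counts for 19722 genes, a signal made of gene counts divided by 1 factor per library: whole reads were recovered for 100% of values within 0.05. The authors also deposited 4 comparison tables with FPKM, log2 fold changes, Benjamini-Hochberg corrected p-values, A. thaliana homologues and annotation text for the 3884 listed genes, per the file headers. The smallest listed log2 change was over 1.

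The 94 genes, the role groups, the pathway lists and the tests were chosen with earlier results of these data known, and the role groups after values were seen. Every zero was checked: it was left out where FPKM was at least 1 or predicted at least 20 counts, or, without FPKM, where a partner library in that group had 20 or more. This removed 17395 values (5320 by FPKM, 12075 by partner libraries); the rule came from an earlier analysis and was revised after values were seen. The main test was limma 3.58.1 in R 4.3.3, with an intensity trend, on log2(normalized count + 1), fitting all 12 libraries with a mean for each group. Genes needed a mean of 10 or more and 2 or more usable values in both groups of a comparison, with Benjamini-Hochberg adjustment over all genes tested. Fold changes on this scale understate the change of low genes. The interaction was the V3 change over time minus the V2 change, and shares its libraries with the listings. FPKM of listed genes were tested in the same way with a pseudocount of 0.5. edgeR 4.0.16 and DESeq2 1.42.0 on recovered reads were alternatives, among 24 fixed and 2 added after seeing the data (the FPKM test and zeros judged by partner libraries alone). The limma and edgeR fits were run on simulated counts with known changes before use. Genes given in every library were, per role, up to 3 with the smallest adjusted p at 5 d, up to 2 with the highest mean count and those called against their role, and per comparison the 5 largest called changes each way; others named were chosen after their values were seen. Reads are not independent molecules, and no sequences were used here.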

Additional observations from a re-analysis of the deposited data

Results flagged for a closer look

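For 9 of the 94 genes the change over time differed between zones by the limma test of the difference itself (V3 change minus V2 change, log2, adjusted over all genes). Among division genes it was 1.31 for DPB2, 1.09 for CYCA1;1, 1.25 for AUR1, 0.80 for AT3G20150 and -2.34 for CYCP2;1. The first 4 changed downward in V2, and in V3 none of them was called over time. AUR1 changed by 0.44 in V3, with each library of 5 d above each of 0 d. CYCP2;1 was higher at 5 d in V2 and lower at 5 d in V3. Among genes matched by text alone it was 0.65 for ADK1, 1.03 for ADK2, 1.28 for AT1G10780 and -1.16 for AT5G26960. The adenosine kinases ADK1 and ADK2 rose in V3, the F-box gene AT1G10780 fell in V2, and AT5G26960 rose in V2. In V3 the libraries of 5 d all lay above those of 0 d for AT1G10780 and all below them for AT5G26960. With 1 library left out in turn, ADK2 stayed called throughout, and each of the other 8 lost its call at least once. All 9 were listed by the authors for the zones at 5 d, and this difference is built from the 5 d and 0 d zone differences, so the test uses values that chose the genes.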

How the results depend on the processing

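Counts of called genes are given as all 94, then the 71 division and histone genes. For the zones at 5 d no alternative moved the counts by over 1.5 times. For the zones at 0 d (16 and 14) they were 8 and 6 with zeros as deposited, 3 and 2 by edgeR with zeros as deposited, 47 and 36 by DESeq2, 2 and 2 with the compared groups alone, 59 and 51 by FPKM, 28 for all 94 with zeros judged by partner libraries, and 0 to 28 and 0 to 24 with 1 library left out. For V2 over time (40 and 31) they were 65 and 54 by FPKM and 19 for the 71 by edgeR with zeros as deposited, and 24 to 49 and 18 to 41 with 1 library left out. For V3 over time (9 and 3) they were 16 and 7 by DESeq2, 20 and 8 by FPKM, 3 for all 94 without the text-only genes, and for the 71 5 with the compared groups alone, 5 by partner libraries and 2 to 5 with 1 library left out. For the interaction (9 and 5) they were 5 and 1 with zeros as deposited, 4 and 1 by edgeR with zeros as deposited, 24 and 13 by DESeq2, 22 and 11 by partner libraries, 30 and 19 by FPKM, 5 for all 94 without the text-only genes, 3 for the 71 by edgeR on genes without a contradicted zero, and 2 to 28 and 0 to 22 with 1 library left out. No direction reversed, and the causes were not tested. Replicate numbers did not pair the libraries (correlations of deviations -0.135 to 0.0967); with the replicate block the counts were 1 and 0 at 0 d and 4 and 0 for the interaction. V2 0 d replicate 3 gave back 12252622 reads, a sum taken with its 6553 contradicted zeros. The part of these zeros in the low sum, and its bearing on genes of low count, were not tested.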
